A study of Mus musculus with 12 samples.

Results

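The genes described here encode the proteins of the mitochondrial ribosome. They were chosen by name: Ensembl mouse IDs were matched to symbols, and every symbol that starts with Mrpl or Mrps followed by a digit was taken, without pseudogenes. This gave 78 of the 9073 genes in the count table, 49 of the large subunit (Mrpl) and 29 of the small subunit (Mrps) by symbol, and all 78 passed the filter on low counts. RNA was measured in mouse dorsal root ganglion (DRG) sensory neurons in 4 groups, IP shGpr151, IP control, Input shGpr151 and Input control. All 4 groups had the genotype RPL22HA+/+;Advillin-Cre+, in which Cre driven by Advillin, a gene of sensory neurons, turns on a cytosolic ribosomal protein with a haemagglutinin (HA) tag. The treatment was AAV-shGpr151, a virus with a short hairpin RNA named for the orphan receptor gene Gpr151, or AAV-control. IP is the RNA retained with the tagged ribosomes by an anti-HA antibody, and Input is RNA of the whole lysate, which also holds RNA of the other cells present. The labels give the animals only as adult and do not say whether samples of a group came from separate animals or cultures. They name cultured neurons after a preconditioning sciatic nerve injury in one place and freshly collected ganglia in another.

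Mitochondrial ribosomes translate the few mRNAs encoded by mitochondrial DNA, all of which specify subunits of the respiratory chain and of ATP synthase. The ribosomal RNAs come from mitochondrial DNA, but every protein of both subunits is encoded in the nucleus, made on cytosolic ribosomes and imported. Symbols follow the subunit with few exceptions, such as Mrps18a and Mrps30, which sit in the large subunit of mammalian mitochondrial ribosomes. The mRNAs of the Mrpl and Mrps genes can therefore be retained with HA-tagged cytosolic ribosomes, whereas the mRNAs that the mitochondrial ribosome itself translates are not a substrate of the tagged particle. Sensory neurons have long axons that are supplied by mitochondria far from the cell body.

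The 4 libraries held 3285258 counts (IP shGpr151), 4245486 (IP control), 6148538 (Input shGpr151) and 6332991 (Input control), each the sum of 3 columns. Within a group the columns were alike nearly to the limit of counting noise, with a chi-square per degree of freedom of 0.981 to 1.05 within groups and of 1.80 to 156 between groups. Each group was therefore counted as 1 sample, no comparison has a replicate check, and no p-value is given. Gpr151 itself had 250 counts in IP shGpr151 and 314 in IP control, 76.1 and 74.0 CPM (counts scaled to the library total), so the IP library with the shGpr151 label showed no lower level of the targeted gene. In Input it had 13 counts with shGpr151 and 24 with control. Of 15 pan-neuronal and sensory neuron markers, 13 were higher in IP than in Input in the libraries labelled shGpr151 and 13 in the control libraries. Below, a log2 ratio is of summed counts over library sizes scaled by trimmed mean of M values (TMM), and the range after it is its 95% counting interval. A call of higher or lower means that this interval lies on 1 side of 0. Such a call compares 2 libraries, not 2 conditions, and covers counting error only, since without molecular identifiers PCR copies of a molecule count separately. Leaving out 1 column removes part of a library's counts, so whether a call is then kept depends mainly on how near its interval was to 0. It is no check across replicates.

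Promoter sequences are shown for 6 members to which the results return: Mrps26, Mrpl9 and Mrpl52, with some of the lowest IP over Input ratios; Mrpl3, with an IP over Input ratio above 0; and Mrps16 and Mrps11, lower in IP but higher in Input in the libraries labelled shGpr151. Each line gives the 150 bases before the annotated start, 5′ to 3′ on the gene's strand, from RefSeq on GRCm38.p6, a different build from the one used for the counts. Capitals mark a motif of a factor known to bind promoters of nuclear genes for mitochondrial proteins. Members without such a motif in these 150 bases were left out, so its presence in all 6 follows from the choice. CTTCCGG and its reverse complement CCGGAAG are the core of sites for ETS factors such as GABPA, the capitals in Mrpl9 are the palindromic site of NRF1, and CGCCATCTT is the reverse complement of AAGATGGCG, a site of YY1. The windows lie at chr2:130563607-130563756 on the plus strand (Mrps26), chr3:94443186-94443335 plus (Mrpl9), chr14:54426759-54426908 plus (Mrpl52), chr9:105053118-105053267 plus (Mrpl3), chr14:20393491-20393640 minus (Mrps16) and chr7:78782981-78783130 plus (Mrps11).
Mrps26: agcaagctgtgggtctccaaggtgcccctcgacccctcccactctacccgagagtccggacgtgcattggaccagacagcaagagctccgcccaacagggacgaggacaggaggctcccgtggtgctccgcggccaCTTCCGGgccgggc
Mrpl9: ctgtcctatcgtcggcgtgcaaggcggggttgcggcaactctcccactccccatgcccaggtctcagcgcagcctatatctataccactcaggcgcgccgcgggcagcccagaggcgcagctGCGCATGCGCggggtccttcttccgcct
Mrpl52: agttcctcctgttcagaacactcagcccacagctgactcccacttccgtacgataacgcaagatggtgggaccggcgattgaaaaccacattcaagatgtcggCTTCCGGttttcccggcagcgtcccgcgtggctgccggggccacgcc
Mrpl3: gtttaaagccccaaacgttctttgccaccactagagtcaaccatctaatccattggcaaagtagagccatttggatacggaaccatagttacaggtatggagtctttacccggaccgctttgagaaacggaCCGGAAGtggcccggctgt
Mrps16: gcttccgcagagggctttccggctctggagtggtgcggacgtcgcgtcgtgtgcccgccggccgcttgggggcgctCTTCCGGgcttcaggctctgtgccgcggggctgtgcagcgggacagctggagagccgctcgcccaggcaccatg
Mrps11: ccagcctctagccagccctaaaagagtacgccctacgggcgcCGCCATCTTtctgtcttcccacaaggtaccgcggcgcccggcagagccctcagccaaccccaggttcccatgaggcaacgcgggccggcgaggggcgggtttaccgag

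A window was listed for 69 of the 78 members. Both strands of the whole listed window, which is longer than the 150 bases shown, were searched for exact letters. CCGGAAG stood in 25 of the 69 member windows (36.2%), against 20.6% of the 6610 windows of all genes tested and 9.12% of all 27025 windows. AAGATGGCG stood in 8 member windows (11.6%), against 3.83% of those of the genes tested, and the NRF1 site in 3 (4.35%), against 2.30%. At least 1 of these 3 motifs was found in 34 member windows (49.3%), against 25.5% of the windows of the genes tested. The SP1 motif GGGCGG was less frequent among the members, at 34 of 69 windows (49.3%) against 67.7%. TATAAA stood in 4 member windows (5.80%), and CCAAT in 27 (39.1%) against 38.8% for the genes tested. These are letter matches in a window and not bound sites. An ETS match stood 14 bases before the start in Mrps26, at the low end of the IP over Input order. In Mrpl3, with ratios above 0, another stood 19 bases before the start. At the IP-rich end Mrpl19 had no window, and the 150 bases of Mrps10, Mrpl45 and Mrps5 held none of the 3 motifs. Those of Mrps14, at the low end, held none either. A link between motifs and this order was not tested.

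Every gene counted had at least 1 count in all 4 libraries, so detection does not set the transcripts of mitochondrial ribosomal proteins apart. Their summed level was 8695 CPM in IP shGpr151, 9336 CPM in IP control, 11427 CPM in Input shGpr151 and 10991 CPM in Input control. The median member had 96.5, 102, 62.5 and 49.9 CPM in the same libraries, which is 317, 432.5, 384.5 and 316 counts. The median of all genes tested was 102, 124, 35 and 37 counts, so intervals of the members were in general narrower than those of other genes. Shares of called members and of all genes tested, set side by side below, are therefore not at equal depth. Input counts were concentrated in few genes: the 6 members with the highest summed level, Mrpl33, Mrpl13, Mrps21, Mrps14, Mrpl52 and Mrpl20, held 19.7% of member counts in IP shGpr151 and 20.02% in IP control, but 41.4% in Input shGpr151 and 46.2% in Input control. Since high Input levels helped to choose these 6, part of that contrast follows from the choice. The top 6 of each library by its own counts held 24.2% in IP shGpr151 and 24.0% in IP control. In Input shGpr151 they held 41.9%, and in Input control 48.2%. All levels are read counts per gene and not per length, since transcript length was not analysed, so a higher level of 1 gene than of another is a higher count.

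**Figure D1:**
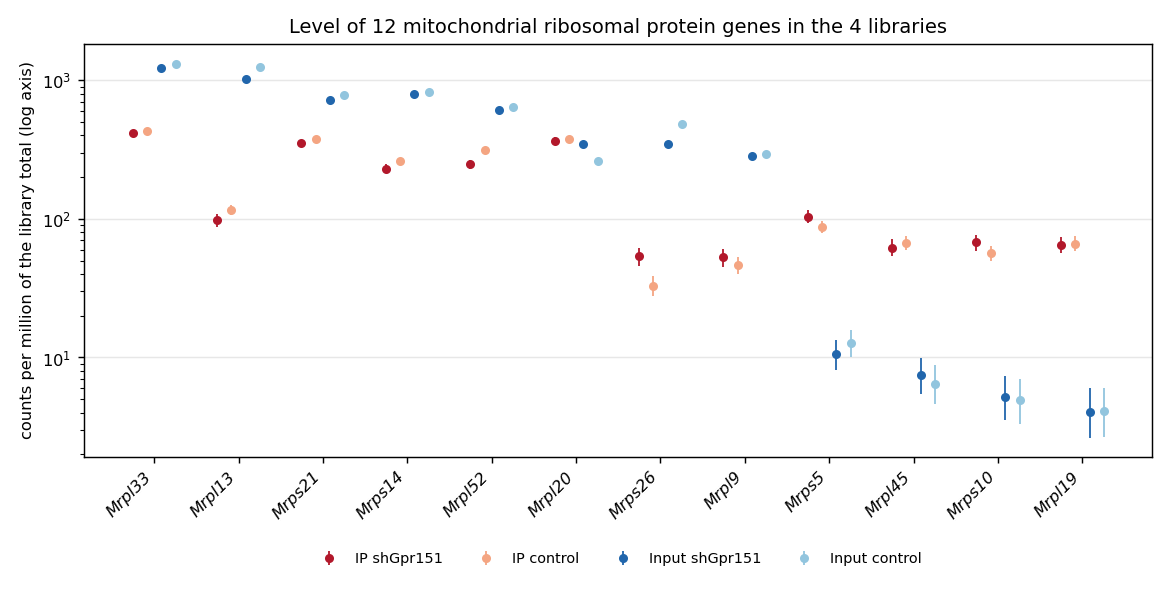
Levels of 12 mitochondrial ribosomal protein genes in CPM (log axis) in the 4 libraries, with exact Poisson 95% intervals as bars. Mrps26 and Mrpl13 stand far lower in both IP libraries than in both Input libraries, and Mrpl19 and Mrps10 stand higher in IP.

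Mrpl33, a small protein with a bacterial homologue in the large subunit, had the highest count of the members. Its 3 columns held 411, 463 and 493 counts in IP shGpr151, 612, 584 and 625 in IP control, and summed to 7567 in Input shGpr151 and 8299 in Input control. These are 416 CPM in IP shGpr151 and 429 CPM in IP control. The lowest member was Mrps2, with 23 counts in IP shGpr151, 31 in IP control, 12 in Input shGpr151 and 11 in Input control. For Mrps2 the interval of every comparison included 0, and at this depth a difference was not detectable.

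The comparison of IP with Input asks which transcripts were retained with the ribosomes of sensory neurons more, or less, than transcripts in general. Most members stood low in IP: in the libraries labelled shGpr151, 62 of 78 were lower and 5 higher, and in the control libraries 56 were lower and 8 higher. Among all genes tested, 33.5% were lower and 34.0% higher in the shGpr151 comparison, and 33.5% lower and 33.1% higher in the control comparison. The median log2 ratio of the members was -1.72 with shGpr151, against 0.10 for all genes tested, and -1.16 with control, against 0.06. These directions depend on the scaling, because TMM moved every IP over Input ratio by -2.19 with shGpr151 and by -2.17 with control relative to total counts. On total counts 44 members were higher and 19 lower with shGpr151, 56 were higher and 17 lower with control, and the medians were 0.48 and 1.01. On that scale 82.2% of all genes tested were higher and 11.7% lower with shGpr151, and 83.7% higher and 11.1% lower with control. In bulk RNA, fewer cells of a type and less RNA per cell cannot be told apart, and Input also holds the RNA of cells without the tag.

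Both subunits stood low. Of the 49 large subunit genes 42 were lower and 3 higher in IP with shGpr151, and 38 were lower and 4 higher with control. Of the 29 small subunit genes 20 were lower and 2 higher with shGpr151, and 18 were lower and 4 higher with control. For scale, 84 of 85 cytosolic ribosomal protein genes were lower in IP with shGpr151, with a median of -3.50, and 82 with control, with a median of -2.97. All 13 mitochondrially encoded mRNAs were lower, with medians of -4.93 with shGpr151 and -5.21 with control. On total counts in the control libraries these 2 medians remained below 0, at -0.79 for the cytosolic genes and -3.03 for the mitochondrially encoded ones, where that of the members was 1.01.

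**Figure D2:**
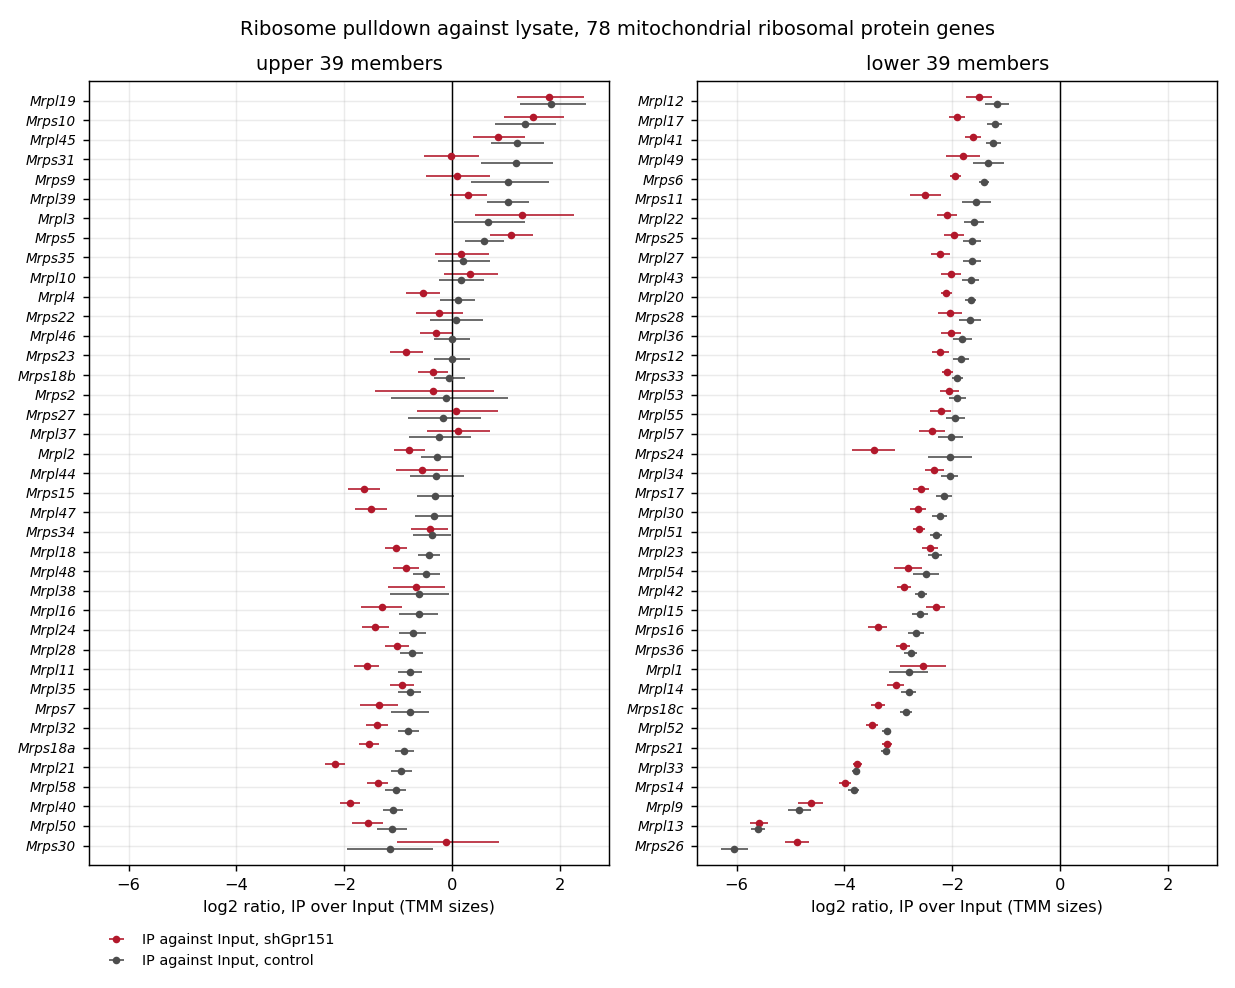
IP over Input log2 ratio (TMM scale) of all 78 mitochondrial ribosomal protein genes with 95% counting intervals, in the libraries labelled shGpr151 (red) and in the control libraries (grey), ordered by the control ratio. In the control libraries the ratios run from Mrps26 at -6.04 to Mrpl19 at 1.84, and most points lie below 0.

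The spread among the members was wide. Ratios ran from -5.59 to 1.80 in the libraries labelled shGpr151 and from -6.04 to 1.84 in the control libraries. The order was nearly the same in both, with a Pearson correlation across the 78 genes of 0.95 and a Spearman correlation of 0.96, where all 8312 genes gave 0.95 and 0.91. Genes are not independent replicates, and no library is shared by the 2 ratios. Called lower in both treatments were 55 members, and called higher in both were 5: Mrpl19, Mrps10, Mrpl3, Mrps5 and Mrpl45. The share of all genes tested called the same way in both was not counted. With ratios that correlated this closely over all genes, agreement of the 2 calls is not particular to the members.

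At the Input-rich end, Mrps26, a small subunit protein with no bacterial homologue, had 60, 53 and 63 counts in the columns of IP shGpr151 and 55, 32 and 53 in those of IP control, against 714, 660 and 748 in Input shGpr151 and 1072, 936 and 1045 in Input control. Every IP column was below every Input column, but columns of a group are not replicates and the IP libraries were smaller. Its IP over Input log2 ratio was -4.88 (-5.11 to -4.66) with shGpr151 and -6.04 (-6.30 to -5.80) with control. Mrpl13, a conserved large subunit protein, had 321 counts in IP shGpr151 and 493 in IP control, against 6325 in Input shGpr151 and 7925 in Input control. The ratio of Mrpl13 hardly differed by treatment, at -5.59 with shGpr151 and -5.60 with control. Mrpl9, whose promoter above holds an NRF1 motif, had 173 and 197 counts in IP shGpr151 and IP control and 1746 and 1863 in Input shGpr151 and Input control, with ratios of -4.63 with shGpr151 and -4.84 with control. Mrps14 followed at -3.98 with shGpr151 and -3.83 with control, and Mrpl33 at -3.76 with shGpr151 and -3.78 with control. These 5 members, and Mrps21 and Mrpl52 at -3.22 and -3.49 with shGpr151 and -3.23 and -3.22 with control, were below 0 on total counts too.

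At the IP-rich end, Mrpl19, a large subunit protein with a bacterial homologue, had 65, 76 and 72 counts in the columns of IP shGpr151 and 94, 79 and 109 in IP control, against sums of 25 in Input shGpr151 and 26 in Input control. Its ratio was 1.80 (1.20 to 2.46) with shGpr151 and 1.84 (1.26 to 2.48) with control. Mrps10, of the small subunit head, had 222 counts in IP shGpr151 and 239 in IP control against 32 in Input shGpr151 and 31 in Input control, with ratios of 1.5 (0.97 to 2.09) with shGpr151 and 1.35 (0.81 to 1.94) with control. Mrpl45, which in mammals helps to hold the ribosome at the inner membrane near the exit tunnel, had ratios of 0.86 (0.39 to 1.35) with shGpr151 and 1.20 (0.73 to 1.71) with control. Mrps5, a conserved small subunit protein, had 1.1 (0.71 to 1.51) with shGpr151 and 0.60 (0.25 to 0.96) with control. Mrpl3, which reaches towards the peptidyl transferase centre, had 78 counts in IP shGpr151 and 120 in IP control against 13 in Input shGpr151 and 25 in Input control, with ratios of 1.29 (0.44 to 2.27) with shGpr151 and 0.67 (0.04 to 1.35) with control. The control call of Mrpl3 was lost in 3 of the comparisons that left out 1 column, at 0.41 without the first Input control column. Input levels at this end rest on few counts, which sets the width of the intervals.

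Members with a described function of their own lay between these ends. Mrpl12, a stalk protein that in human cells has also been reported to bind the mitochondrial RNA polymerase, had 265 counts in IP shGpr151 and 403 in IP control, against 306 in Input shGpr151 and 301 in Input control. Its ratios were -1.5 with shGpr151 and -1.18 with control. Mrps12, the homologue of a bacterial decoding centre protein, had ratios of -2.22 with shGpr151 and -1.84 with control. Mrpl58, a peptidyl-tRNA hydrolase that also rescues stalled ribosomes, had -1.38 with shGpr151 and -1.04 with control. On total counts these turned positive with control, at 1.00 for Mrpl12, 0.34 for Mrps12 and 1.13 for Mrpl58. Mrps36, which is also known as a component of the 2-oxoglutarate dehydrogenase complex rather than of the ribosome, had 587 counts in IP shGpr151 and 763 in IP control, against 1812 in Input shGpr151 and 1727 in Input control, with ratios of -2.92 with shGpr151 and -2.77 with control. Mrps27, a pentatricopeptide repeat protein, and Mrps22 were not called in either treatment, with ratios of 0.08 and -0.24 with shGpr151 and -0.16 and 0.07 with control. Mrps34 was close to 0 at -0.41 (-0.76 to -0.06) with shGpr151 and -0.37 (-0.72 to -0.02) with control, and leaving out 1 column ended either call in 3 cases. Mrpl44, a protein of the ribonuclease III fold, was lower with shGpr151, at -0.55 (-1.03 to -0.07), and had -0.29 (-0.78 to 0.22) with control. Its shGpr151 call ended without the third Input shGpr151 column, at -0.19.

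The comparison of the IP libraries asks whether ribosome-bound mitochondrial ribosomal protein mRNAs differed with the hairpin. In IP shGpr151, 23 members were lower and 1, Mrps26, was higher than in IP control, where 10.8% of all genes tested were lower and 9.35% higher. The share of lower members was 29.5%, at higher counts than those of the median gene tested. Log2 ratios lay below 0 in 66 members and above 0 in 12, with a median of -0.13, against 0.0035 for all genes tested, and a range of -0.48 to 0.66. The differences were small: 0 of the 23 lower members reached 1.5-fold, which 1.08% of all genes did in that direction, and Mrps26 reached 1.5-fold higher, as did 2.29% of all genes. On total counts 17 members were lower and 2 higher, against 7.75% and 12.2% of all genes, with a median of -0.09. By subunit, 16 of 49 large subunit genes and 7 of 29 small subunit genes were lower, with medians of -0.16 and -0.10. Cytosolic ribosomal protein genes had a median of -0.15, with 79 of 85 lower, and 5 of 13 mitochondrially encoded mRNAs were higher, with a median of 0.15.

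The lowest ratio in IP was that of Mrps16, a conserved small subunit protein. Its columns held 105, 96 and 114 counts in IP shGpr151 and 195, 186 and 171 in IP control, and the ratio was -0.48 (-0.69 to -0.28). Every shGpr151 column lay below every control column, but columns of a group are not replicates and the shGpr151 library was also the smaller one. Scaled to library totals, the levels were 95.9 CPM in IP shGpr151 and 130 CPM in IP control. Mrps11, near the mRNA exit of the small subunit, had 144 counts in IP shGpr151 and 235 in IP control, a ratio of -0.38 (-0.69 to -0.07). Mrpl52, found in mitochondrial and not in bacterial ribosomes, had 813 counts in IP shGpr151 and 1324 in IP control, a ratio of -0.38 (-0.50 to -0.25). Mrpl16, a conserved large subunit protein, had 118 and 189 counts in IP shGpr151 and IP control and a ratio of -0.35 (-0.70 to -0.01). Of the 23 lower members 12 kept their call whichever of the 6 IP columns was left out, which shows distance from 0 and not replication. Mrps16 and Mrpl52 were among them, but Mrps11 and Mrpl16 were not: without the second IP control column their ratios were -0.23 and -0.17. Mrpl12 had -0.28 (-0.51 to -0.05) with all columns and -0.17 without that column, where the call ended.

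Mrps26 stood apart from the other members. It had 53.6 CPM in IP shGpr151 and 32.98 CPM in IP control, a log2 ratio of 0.66 (0.33 to 0.99), the sole call in that direction. Of the counts in IP shGpr151, the columns held 60, 53 and 63, against 55, 32 and 53 in IP control, so the columns overlapped before scaling for the smaller library. Mrpl37, with 95 counts in IP shGpr151 and 95 in IP control, had the next highest ratio among members with at least 100 counts over the libraries compared, 0.33 (-0.10 to 0.75), and was not called.

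In Input the members stood the other way. In Input shGpr151, 35 members were higher and 8 lower than in Input control, where 11.6% of all genes tested were higher and 13.1% lower. The share of higher members was 44.9%, again at higher counts than those of the median gene tested. Ratios lay above 0 in 58 members and below 0 in 20, with a median of 0.21, against -0.07 for all genes tested, and ran from -0.92 to 1.29. At least 1.5-fold higher were 8 members, against 4.32% of all genes, and 0 were 1.5-fold lower, against 4.78%. On total counts 38 were higher and 7 lower, where 12.3% of all genes were higher and 12.3% lower. Large subunit genes had a median of 0.20, with 21 of 49 higher and 5 lower, and small subunit genes one of 0.22, with 14 of 29 higher and 3 lower. Cytosolic ribosomal protein genes were higher in 76 of 85 cases, with a median of 0.36, while 11 of 13 mitochondrially encoded mRNAs were lower, with a median of -0.26. The summed level of the members differed little, at 11427 CPM in Input shGpr151 and 10991 CPM in Input control.

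**Figure D3:**
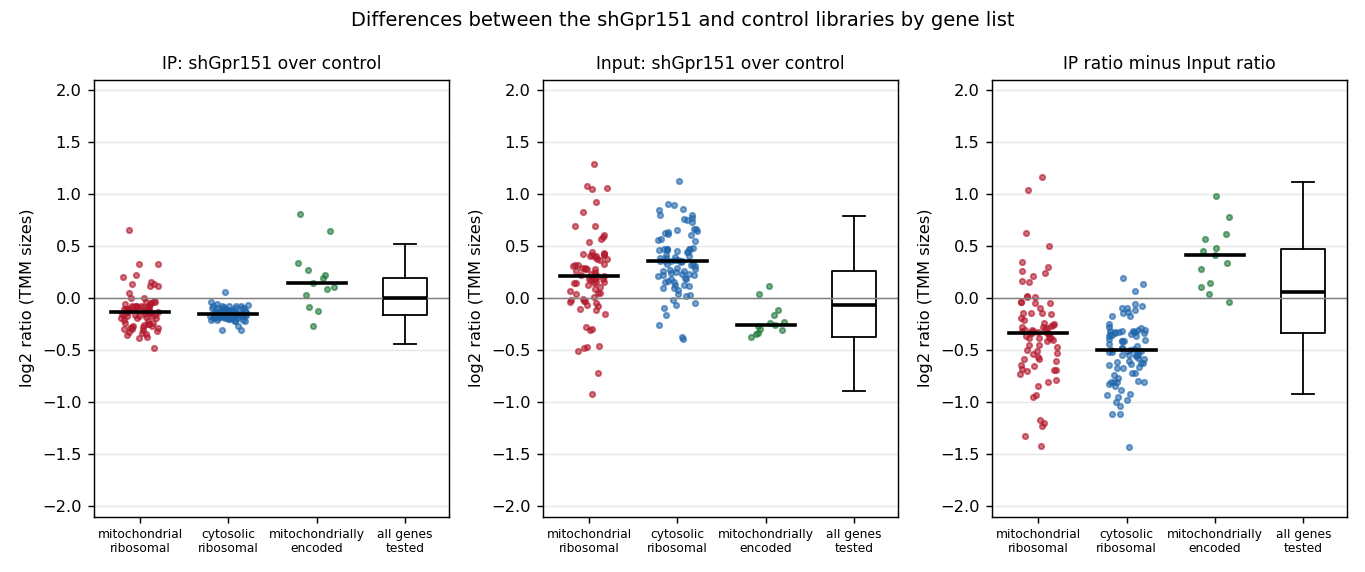
Log2 ratios of shGpr151 over control in IP (left) and in Input (middle) and the IP ratio minus the Input ratio (right), with 1 point per gene for mitochondrial ribosomal protein, cytosolic ribosomal protein and mitochondrially encoded genes, and a box with whiskers at the 5th and 95th percentiles for all genes tested. The medians of the mitochondrial ribosomal protein genes are -0.13, 0.21 and -0.33, and those of the mitochondrially encoded mRNAs are 0.15, -0.26 and 0.42.

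Of the members higher in Input shGpr151, 24 of 35 kept their call whichever column was left out. Mrps24, homologue of a bacterial protein at the mRNA entry, had 292 counts in Input shGpr151 and 121 in Input control, a ratio of 1.29 (0.98 to 1.61). In IP the same gene had 65 counts with shGpr151 and 89 with control, a ratio of -0.13 (-0.61 to 0.35) that was not called. Mrps31, a protein of mitochondrial ribosomes alone, had 48 and 23 counts in Input shGpr151 and Input control, a ratio of 1.08 (0.34 to 1.87). Mrpl47, near the exit tunnel of the large subunit, and Mrps15, a conserved small subunit protein, were close behind at 1.06 (0.71 to 1.41) and 1.05 (0.71 to 1.4). Mrpl21 had 702 counts in Input shGpr151 and 375 in Input control, a ratio of 0.93 (0.74 to 1.11). Of the 6 most abundant members Mrpl20 was higher, with 2119 counts in Input shGpr151 and 1670 in Input control, a ratio of 0.36 (0.27 to 0.46).

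The other 5 of the most abundant members, which also stood far lower in IP than in Input, were lower in Input shGpr151. Mrpl13 had a ratio of -0.30 (-0.35 to -0.26), Mrps21 of -0.15 (-0.21 to -0.09), Mrpl33 of -0.11 (-0.16 to -0.07), Mrpl52 of -0.10 (-0.17 to -0.04) and Mrps14 of -0.07 (-0.12 to -0.01). Without the second Input shGpr151 column Mrps14 had -0.05, and the same without the first Input control column, and was not called. Lower as well were Mrps26, with 2122 counts in Input shGpr151 and 3053 in Input control and a ratio of -0.50 (-0.58 to -0.42), Mrpl1, at -0.48 (-0.78 to -0.18), and Mrpl15, with 800 and 1126 counts and a ratio of -0.47 (-0.60 to -0.34). The call of Mrps14 was the only one of these 8 that ended when 1 column was left out.

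Set side by side, the IP and Input ratios of shGpr151 over control pointed in opposite directions for most members. Below 0 in IP and above 0 in Input were 51 of 78, 15 were below 0 in both, 7 above 0 in both, and 5 above 0 in IP and below 0 in Input. These are shares of 65.4%, 19.2%, 8.97% and 6.41%, where all genes tested split into 26.5%, 23.1%, 18.9% and 31.5% in the same order. The IP ratio minus the Input ratio was below 0 in 64 members, with a median of -0.33, against 0.06 for all genes tested. By its interval 47 members were lower and 2 higher, where 13.1% of all genes were lower and 11.9% higher. These shares are not at equal depth, since the members in general had more counts and narrower intervals. This held in both subunits, with 30 of 49 large and 17 of 29 small subunit genes lower. At least 1.5-fold lower were 19 members, against 7.13% of all genes, and 1, Mrps26, was 1.5-fold higher, against 8.75%. Cytosolic ribosomal protein genes had a median difference of -0.50, with 81 of 85 lower, and mitochondrially encoded mRNAs one of 0.42, with 8 of 13 higher.

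**Figure D4:**
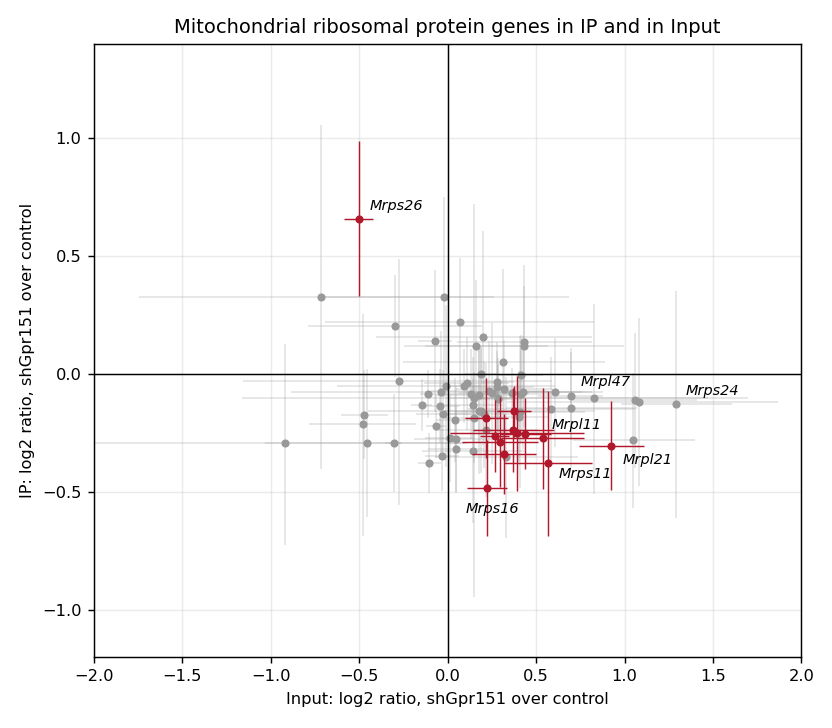
Log2 ratio of shGpr151 over control in Input (x axis) and in IP (y axis) for the 78 mitochondrial ribosomal protein genes, TMM scale. The 13 genes whose counting intervals lie on opposite sides of 0 in IP and in Input are red, 12 of them lower in IP and higher in Input, and Mrps26 alone in the opposite corner.

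Opposite calls in IP and in Input were found for 13 members. Lower in IP and higher in Input were 12 (15.4%), where 4.54% of all genes tested were, and 1 was higher in IP and lower in Input, where 2.18% of all genes were. The 12 were 7 of the large subunit (Mrpl4, Mrpl11, Mrpl17, Mrpl18, Mrpl21, Mrpl30 and Mrpl32) and 5 of the small subunit by symbol (Mrps6, Mrps11, Mrps16, Mrps18a and Mrps18c). Mrpl21 had the widest gap of these. Its columns held 132, 132 and 119 counts in IP shGpr151 and 184, 215 and 194 in IP control, a ratio of -0.30 (-0.49 to -0.12), while the Input ratio was 0.93, and the difference was -1.23 (-1.49 to -0.97). Both calls held whichever column was left out in 7 of the 13: Mrpl17, Mrpl21, Mrps6, Mrps16, Mrps18a, Mrps18c and Mrps26. For Mrps11 the difference was -0.95 (-1.33 to -0.56) and for Mrps16 -0.70 (-0.93 to -0.47). Mrps24 and Mrps15 had still lower differences, -1.42 (-1.97 to -0.86) and -1.33 (-1.76 to -0.89), through their Input ratios, since neither was called in IP. Mrps26 was the opposite case, higher in IP and lower in Input, with a difference of 1.16 (0.83 to 1.49). The other member with a higher difference was Mrpl15, at 0.30 (0.07 to 0.53). In 4 members, Mrpl13, Mrpl52, Mrps14 and Mrps21, both ratios were called lower, as in 1.29% of all genes tested. The difference was called lower for Mrpl52, at -0.27 (-0.41 to -0.13), and Mrps14, at -0.15 (-0.30 to -0.01), and was not called for Mrpl13, at 0.01 (-0.20 to 0.22), and Mrps21, at 0.01 (-0.11 to 0.14).

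The other 9 of the 12 members lower in IP and higher in Input had smaller gaps than Mrpl21 and Mrps11. Mrps6, a conserved small subunit protein, had 1224 counts in IP shGpr151 and 1714 in IP control, and 1928 in Input shGpr151 and 1509 in Input control, with ratios of -0.16 (-0.27 to -0.05) in IP and 0.37 (0.28 to 0.47) in Input. Mrps18c had 589 counts in IP shGpr151 and 886 in IP control, and 2511 in Input shGpr151 and 2121 in Input control, with ratios of -0.26 (-0.41 to -0.11) and 0.26 (0.18 to 0.35). Mrps18a, a paralogue of Mrps18c, had 469 counts in IP shGpr151 and 744 in IP control, and 557 in Input shGpr151 and 454 in Input control, with ratios of -0.34 (-0.51 to -0.17) and 0.32 (0.13 to 0.50). The 2 paralogues had almost the same pair of ratios, although Mrps18c stood much lower in IP than in Input, at -3.38 with shGpr151 and -2.86 with control, than Mrps18a, at -1.54 with shGpr151 and -0.88 with control. Mrpl17, a conserved large subunit protein at the exit tunnel, had 606 counts in IP shGpr151 and 906 in IP control, a ratio of -0.25 (-0.40 to -0.10), and an Input ratio of 0.44 (0.30 to 0.58). For Mrpl11, at the base of the stalk, the IP ratio of -0.27 (-0.49 to -0.06) was -0.22 and not called without the third IP control column, and the Input ratio was 0.54 (0.30 to 0.77). Mrpl32, whose maturation in mouse requires the m-AAA protease, had -0.29 (-0.48 to -0.10) in IP and 0.29 (0.08 to 0.51) in Input, each of which was lost with 1 column left out, at -0.21 and 0.22. The IP calls of Mrpl18, Mrpl30 and Mrpl4 were lost in 1, 4 and 5 of the 6 comparisons with a column left out.

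In 7 members, all of the large subunit, the IP ratio was lower and the Input ratio was not called: Mrpl12, Mrpl14, Mrpl16, Mrpl34, Mrpl42, Mrpl43 and Mrpl49. The share of all genes tested with this combination was not counted, so the 7 are listed without a background. For scale, 10.8% of all genes tested were lower in IP. Mrpl42 had 591 counts in IP shGpr151 and 943 in IP control, a ratio of -0.35 (-0.50 to -0.20), and 1794 counts in Input shGpr151 and 1861 in Input control, a ratio of -0.03 (-0.13 to 0.06). Mrpl43 had 405 counts in IP shGpr151 and 633 in IP control, a ratio of -0.32 (-0.50 to -0.14), with an Input ratio of 0.05 (-0.11 to 0.20). Mrpl34 had -0.27 (-0.46 to -0.08) in IP and 0.01 (-0.13 to 0.16) in Input. In these 3 the IP call held whichever column was left out, and the Input intervals included 0. Among the other 4, the IP calls of Mrpl14, Mrpl12, Mrpl16 and Mrpl49 ended in 2, 2, 4 and 4 of the 6 comparisons with a column left out.

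Calls of IP over Input also differed between the treatments. Mrps31 was higher in IP than in Input in the control libraries, at 1.18 (0.55 to 1.88), and not called in the libraries labelled shGpr151, at -0.02 (-0.51 to 0.50). Mrpl39 and Mrps9 did likewise, with 0.30 and 0.10 with shGpr151 and 1.03 and 1.04 with control. Mrpl47 and Mrps15 were lower in IP with shGpr151, at -1.51 and -1.64, and not called with control, at -0.34 and -0.31. In all, 11 members had a call in 1 treatment and none in the other, and their differences were not all called. How many of all genes tested had such a pair was not counted. Besides these 5, Mrpl2, Mrpl4 and Mrps23 were lower in IP with shGpr151 and not called with control, and all 8 differences were called lower. Mrpl44 and Mrps18b were likewise lower with shGpr151 alone, but their differences of -0.26 and -0.31 were not called. Mrps30 went the other way, at -0.11 (not called) with shGpr151 and -1.15 (lower) with control, with a difference of 1.04 (-0.11 to 2.19) that was not called.

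The lists of genes that work with the mitochondrial ribosome did not share one direction. For scale, 9.35% of all genes tested were higher and 10.8% lower in IP shGpr151. In Input shGpr151 11.6% were higher and 13.1% lower. These short lists were not tested against those shares. Of its 5 proteins under other symbols, 3 had ratios of shGpr151 over control below 0 in IP and above 0 in Input. Aurkaip1, a small subunit protein, was called in both, with -0.28 (-0.42 to -0.14) in IP and 0.27 (0.13 to 0.42) in Input. Chchd1 had -0.10 in IP, not called, and 0.12 in Input, called higher, and Gadd45gip1 had -0.07 and 0.04, neither called. Ptcd3, a pentatricopeptide repeat protein of the small subunit, was lower in Input, at -0.49, and not called in IP. Dap3, a GTP-binding small subunit protein, was higher in IP than in Input, at 1.47 with shGpr151 and 1.16 with control, while Ptcd3 had -3.98 with shGpr151 and -4.48 with control, and Chchd1 -2.73 with shGpr151 and -2.51 with control. Of 9 translation factors tested 0 were called between the IP libraries and 1 between the Input libraries, the elongation factor Tufm, which was higher at 0.82 (0.25 to 1.4). Their IP ratios had a median of -0.18, with 6 below 0 and 3 above. Counts were low: the 11 of this list with counts had medians of 47 in IP shGpr151 and 69 in IP control. In Input the medians were 23 with shGpr151 and 25 with control, so small differences were not detectable. Of 10 tRNA synthetases, 2 were higher and 1 lower in IP shGpr151, with Cars2 at 0.76 and Lars2 at -0.45, and 4 were lower in Input shGpr151. The other higher one was Kars, whose IP interval began at 0.0005. Among 18 assembly and rRNA modification factors 4 were higher in IP shGpr151, including the helicase Dhx30 at 0.48 (0.16 to 0.80), the RNA-binding protein C1qbp at 0.41 and the GTPase Mtg2 at 0.34, and 4 were lower in Input shGpr151. Mtg2 had an extreme IP over Input ratio, -7.41 with shGpr151 and -8.21 with control. Of 12 genes of mitochondrial transcription and mRNA stability 1 was called in either comparison, Slirp, which binds mitochondrial mRNAs together with Lrpprc, at -0.17 in IP and -0.17 in Input.

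Markers of other cells moved between the libraries as well. The shares over all genes tested were 9.35% higher and 10.8% lower in IP shGpr151, and 11.6% higher and 13.1% lower in Input shGpr151. The marker lists are short and were not tested against these shares. Of the 15 neuronal markers, 6 were higher and 3 lower in IP shGpr151, and 1 was higher and 5 lower in Input shGpr151, with a summed share of 1.91% in IP shGpr151, 1.98% in IP control, 0.173% in Input shGpr151 and 0.154% in Input control. In Input shGpr151, 4 of 7 satellite glia markers were lower and 1 higher, 2 of 5 Schwann cell markers lower, 3 of 6 fibroblast markers lower, 1 of 8 macrophage markers higher and 3 of 5 endothelial and mural markers higher. In IP shGpr151, 4 of 6 fibroblast markers were higher, 2 of 7 satellite glia markers were higher and 1 lower, 2 of 8 macrophage markers were higher and 2 lower, 1 of 5 Schwann cell markers was lower and 1 of 5 endothelial and mural markers was lower. The summed share of each of these 5 lists was between 0.0285% and 0.194% in IP shGpr151, 0.0312% and 0.174% in IP control, 0.0222% and 0.0389% in Input shGpr151 and 0.0168% and 0.0421% in Input control. None of the listed markers in the table was at 0 in any library, the lowest count of the whole table being 1. The part of these cells in the values of the mitochondrial ribosomal protein genes was not tested.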

How the data were processed

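Samples numbered 12, 3 in each of 4 groups. Libraries came from a cDNA-PCR kit for nanopore sequencing, per the labels' protocols. Per the submitters' processing notes the tools were minimap2 and Salmon, on GRCm39 (also given as mm39), without version numbers. The authors' table gives raw counts for each gene as whole numbers with no scaling, the lowest count being 1. Not given in the sources used here are the strand setting and the treatment of reads shared by pseudogenes, paralogs or overlapping genes. Members with near-identical copies are uncertain for that reason. Of the IDs, 9061 matched a symbol and 12 did not. The number of columns of no sample was 0.

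From these counts, each group's 3 columns were summed to 1 sample after a chi-square comparison of columns. TMM factors came from edgeR 4.0.16 (R 4.3.3), and filterByExpr with a minimum count of 10 kept 8312 genes. Ratios carry exact conditional binomial (Clopper-Pearson) 95% intervals, differences of ratios a Wald interval, and CPM of library totals exact Poisson intervals (scipy 1.17.1). The procedure was tested on simulated data. Promoter windows are RefSeq's; where a gene had several, the first listed was used, and no window was used for Mrpl4, Mrpl13, Mrpl15, Mrpl19, Mrpl38, Mrpl54, Mrps28, Mrps34 and Mrps35. Named members are the 6 of highest summed CPM, the 4 highest and 4 lowest ratios per comparison among members with at least 100 counts in the groups compared, and 9 with a described role. Further members are named where a count of calls is broken down, and were chosen after their values were seen. Members, lists and rules were chosen with earlier results of these data known. Alternatives were RLE size factors, total counts, no filter, a filter at 20 counts on average, a 1.5-fold rule, edgeR's quasi-likelihood test and DESeq2 1.42.0 on the 12 columns, a replicate block added to the edgeR test, and each column left out. Figures were drawn with matplotlib 3.10.9.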

Additional observations from a re-analysis of the deposited data

Results flagged for a closer look

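For 13 mitochondrial ribosomal protein genes the counting intervals of shGpr151 over control lay on opposite sides of 0 in IP and in Input. With 1 sample per group the difference between IP and Input was not tested across samples, and the values below compare these libraries. For 12 genes the ratio was below 0 in IP and above 0 in Input. The IP ratio minus the Input ratio was -1.23 for Mrpl21, -0.95 for Mrps11, -0.81 for Mrpl11, -0.70 for Mrps16, -0.69 for Mrpl17 and -0.65 for Mrps18a. It was -0.64 for Mrpl4, -0.61 for Mrpl18, -0.58 for Mrpl32, -0.53 for Mrps6, -0.53 for Mrps18c and -0.40 for Mrpl30. For Mrps26 the ratio was above 0 in IP and below 0 in Input, with a difference of 1.16.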

How the results depend on the processing

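Apart from left-out columns, of 115 alternative values of the member counts and medians 80 stayed close to the reported ones, 33 moved and 2 reversed. With total counts the median IP over Input ratio reversed, to 0.48 with shGpr151 (44 higher, 19 lower) and 1.01 with control (56 higher, 17 lower), and so did Mrpl20 (0.0899 and 0.52), Mrpl12 (0.70 and 1.00), Mrpl58 (0.82 and 1.13), Mrps34 (1.78 and 1.80), Mrps12 with control (0.34) and Mrpl44 with shGpr151 (1.64); total counts also gave 2 higher members and a median of -0.0897 between the IP libraries. RLE and DESeq2 sizes gave medians of 0.24 (Input), -1.79 (IP over Input, shGpr151) and -0.38 (difference). Without the filter the IP over Input medians were -1.64 with shGpr151 and -1.08 with control. A mean of at least 20 counts gave medians of 0.16 (Input), -1.09 (IP over Input, control) and -0.25 (difference), and 2 higher members in IP. The 1.5-fold rule left 0 lower in IP, 8 higher and 0 lower in Input, and 1 higher and 19 lower for the difference. On the 12 columns at an adjusted threshold of 0.05, edgeR's quasi-likelihood test left 10 lower in IP and 1 higher and 30 lower for the difference, and DESeq2 left 11, 1 and 29, and 3 lower in Input. These tests, and the edgeR test with a block that follows, take the 3 columns of a group as replicates. The columns were alike nearly to counting noise, so these counts of members cover counting error and not variation between animals or cultures. With the replicate block edgeR left 9 lower in IP and 1 higher and 30 lower for the difference; same-numbered columns correlated at -0.03 to 0.07 over 18 pairs, so the numbers share no more than a label. Leaving out 1 column gave 1 to 3 higher and 18 to 24 lower members in IP (median -0.15 to -0.13), 31 to 35 and 8 to 9 in Input (0.20 to 0.25), 5 to 6 and 59 to 62 for IP over Input with shGpr151 (-1.76 to -1.63), 7 to 9 and 54 to 56 with control (-1.19 to -1.08), and 1 to 3 and 40 to 51 for the difference (-0.40 to -0.33). Of 109 combinations of named member and comparison, 22 changed side when a column was left out and 0 changed sign past the threshold. Of the members called between shGpr151 and control, 12 of 23 lower in IP and 24 of 35 higher in Input kept their call whichever column was left out. Since columns of a group are not replicates, a kept call shows distance from 0 and not that it would repeat. The cause of these changes was not tested. Depth limits members with few Input counts, such as Mrps2 (12 with shGpr151, 11 with control) and Mrpl3 (13 with shGpr151, 25 with control).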
